A study of Mus musculus with 4 samples.

Results

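Polyamines are small cations made from ornithine and methionine, and the 10 genes described here act in their synthesis, its control and their breakdown. The genes were chosen by name, as the rows listed under Odc1, Amd1, Amd2, Srm, Sms, Oaz1, Oaz2, Azin1, Sat1 and Paox, and all 10 were found among the 24411 genes listed for each library. They were measured by RNA-seq of polyadenylated RNA from mouse embryos of the ICR strain, made by in vitro fertilization and collected at the late two-cell stage, 36 h post-insemination (hpi). In 2 control libraries the embryos were cultured in KSOM medium with the solvent DMSO, and in 2 inhibitor-treated libraries with 6 µM 10074-G5, which binds MYC and blocks its pairing with MAX. Each library pooled 10 embryos, and albumin was in the medium of both groups. The start of treatment was the one-cell stage in all the labels, at 3 hpi in the sample labels and at 6 hpi in the series design. The methods call the 2 libraries of a group biological replicates.

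Ornithine decarboxylase (Odc1) makes putrescine, and S-adenosylmethionine decarboxylase (Amd1, Amd2) supplies the aminopropyl groups with which Srm makes spermidine and Sms makes spermine. Antizymes (Oaz1, Oaz2) bind the decarboxylase and carry it to the proteasome, and the antizyme inhibitor Azin1 ties antizyme up. Sat1 acetylates spermidine and spermine, and the oxidase Paox turns the acetylated forms back into shorter polyamines. Odc1 is a classical MYC target, and the comparison asks how the transcripts of the whole pathway stood after MYC was inhibited.

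The libraries held between 18206584 and 20718690 expected counts, the estimates of fragments per gene made by the program RSEM. DMSO replicate 1 stood apart. Its log2 CPM (counts scaled to a common library size) correlated with DMSO replicate 2 at r = 0.887 across the tested genes, while DMSO replicate 2 correlated with the inhibitor-treated libraries at 0.912 and 0.926. The 13 listed markers of the two-cell stage, such as Zscan4 and Zfp352, summed to 1011 FPKM (fragments scaled to transcript length and library size) in DMSO replicate 1, and to 3897 in DMSO replicate 2 and 5092 and 5393 in the inhibitor-treated libraries. All 13 were lowest in DMSO replicate 1. In CPM, 10 were higher and 0 lower in both treated libraries than in both DMSO libraries. Of all tested genes, 28.9% and 28.3% were separated in these directions. Of 20 oocyte markers 17 were lowest in DMSO replicate 1, and in CPM 14 were higher and 2 lower in both treated libraries. The sum of the oocyte markers was still highest in DMSO replicate 1, at 25217 FPKM against 20529.6 in DMSO replicate 2 and 22241 and 20144 in the treated libraries. Cumulus cell markers summed to between 1.15 and 7.31 FPKM and sperm markers to between 3.97 and 18.8, with Ptx3, Amh and Foxl2 of the cumulus cell markers and Prm1, Tnp2, Smcp and Gapdhs of the sperm markers at 0 in all libraries. The part of these library differences in the results below was not tested, and values without DMSO replicate 1 are given beside them. Where a DMSO library is left out, that group is 1 library, the spread comes from the treated libraries alone, and the lone library is assumed to vary like them. Because every library held 10 embryos at 1 stage, fewer transcripts per embryo and fewer embryos with the transcript cannot be told apart.

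Of the 10 genes, 7 had lower and 3 had higher fitted expression in inhibitor-treated embryos, where 48.5% and 51.5% of the 13549 tested genes did. Odc1, Srm and Sat1 stood 2.42 to 2.69 times lower after treatment, Paox stood 2.40 times higher at a low level, and Sms, Oaz1, Oaz2 and Azin1 differed by 1.32 times or less. By edgeR's quasi-likelihood test with adjustment over all tested genes, none of the 10 passed an adjusted p of 0.05, and 0% of all genes passed in either direction. At an unadjusted p under 0.05, 3 of the 10 were lower and 0 higher, against 10.1% and 4.72% of all genes. In CPM scaled with TMM factors (edgeR's scaling of libraries), the groups did not overlap for 6 genes that were lower and 2 that were higher, where 28.3% and 28.9% of all genes were separated in these directions. The 6 include Amd1 and Oaz2, which overlapped in FPKM, and for Amd1 the nearest values of the groups were 329.9 and 325 CPM. The median log2 fold change (log2FC, inhibitor-treated minus DMSO) of the 10 was -0.34, against 0.04 for all tested genes. Without DMSO replicate 1 it was -0.12, with 6 of the 10 lower and 4 higher against 47.0% and 53.0% of all genes. At an unadjusted p under 0.05, Odc1, Srm and Sat1 were then lower, against 7.36% of all genes. Amd2 was then higher, against 6.44% of all genes, but it rests on a DMSO count of 1.55 and is not read as a difference.

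**Figure D1:**
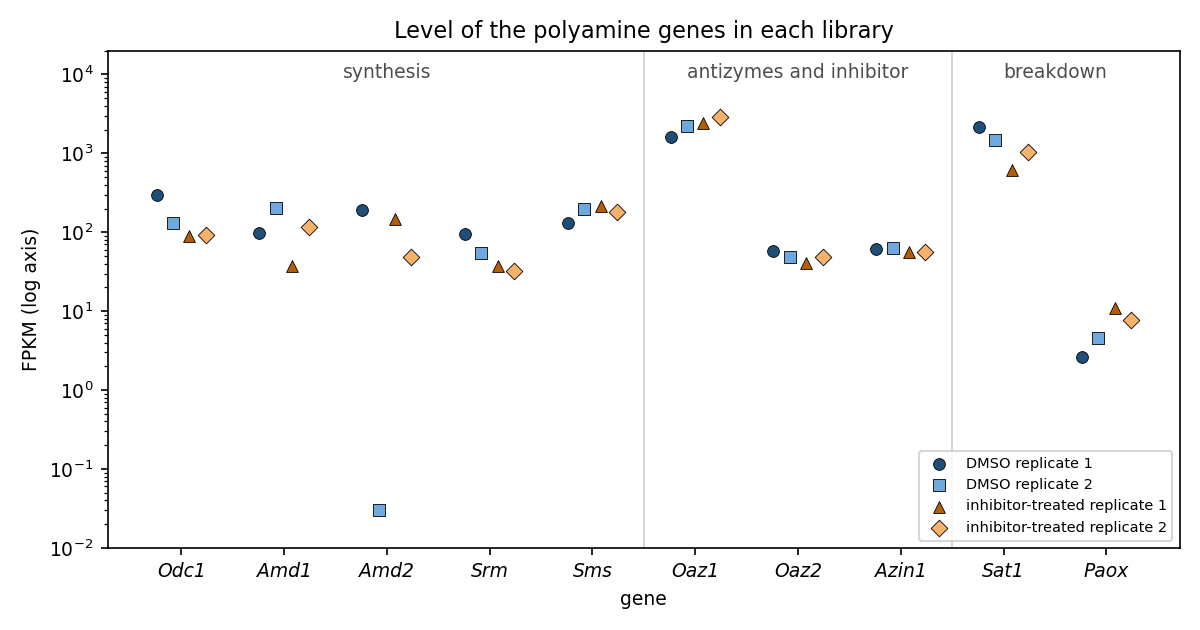
FPKM of each gene (log axis) in the 4 libraries, with circles and squares for DMSO replicates 1 and 2 and triangles and diamonds for the corresponding treated libraries. Oaz1 and Sat1 lie at or above 608 FPKM in every library, Paox lies at or below 10.9, and Amd2 drops to 0.0300 in DMSO replicate 2 alone.

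The transcripts covered a wide range of levels in FPKM, which is scaled to transcript length and so can be compared between genes. Oaz1 averaged 1916 ± 419 FPKM (SD, n = 2) in DMSO embryos and Sat1 1805 ± 491, a difference within their spread. Below them came Odc1 at 214 ± 115, Sms at 165 ± 45.3, Amd1 at 151 ± 74.8 and Amd2 at 94.7 ± 134. The ranges spanned by mean and SD overlapped among these genes, so their order is not read. Srm was at 74.6 ± 27.4, a range that overlapped those of Odc1, Amd1 and Amd2. It also held the means of Azin1, 62.1 ± 0.544, and Oaz2, 52.8 ± 6.57, so the place of Srm is not read either. The mean of Paox was the lowest, at 3.59 ± 1.37. In inhibitor-treated embryos Oaz1 came first at 2661 ± 357, apart from Sat1 at 825 ± 307, and Sms at 198 ± 22.4 stood above Odc1 at 90.8 ± 1.25.

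Odc1, which catalyses the first committed step of the pathway, lies at chr12:17544808-17551502 (mm10). Its level was 295 and 133 FPKM in DMSO replicates 1 and 2 and 89.9 and 91.7 in inhibitor-treated replicates 1 and 2. Every inhibitor-treated value was below every DMSO value, and the DMSO libraries differed from each other by 2.22 times while the treated libraries differed by 1.02 times. The log2FC was -1.43 (SE 0.50, 95% interval -2.61 to -0.25), with an unadjusted p of 0.0238 and an adjusted p of 0.33 by edgeR. Without DMSO replicate 1, the log2FC was -0.55 (unadjusted p of 0.0266, adjusted p of 0.295 by edgeR), and without DMSO replicate 2 it was -1.97 (adjusted p of 0.000379). The treated libraries were thus lower against either control, by 1.46 times when DMSO replicate 2 alone was the control. In the ranking of all genes by FPKM, Odc1 stood at place 520 and 1027 in the DMSO libraries and at 1315 and 1349 in the inhibitor-treated libraries. DESeq2, run on the same genes, gave an adjusted p of 0.0518 with its default filter and of 0.0449 with the filter set for 0.05. The choice between these settings was made after the values had been seen. In the same order, Sat1 had 0.0585 and 0.0506 and Srm 0.0808 and 0.0704.

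Amd1 and Amd2 encode S-adenosylmethionine decarboxylase from nearly the same sequence, and the deposited values of each cannot be read alone. Amd1 lies at chr10:40287458-40302188 with 8 exons in its main transcript, and Amd2 at chr10:35708691-35711891 with 1. In the GENCODE M21 transcripts their coding sequences of 1002 bases before the stop codon differ at 1 base, G796C (counted from the A of the start codon, Amd1 first), and the whole transcripts are 99.1% identical. The stretch around that base is shown because it is the only place in the coding sequence where a read can tell the genes apart, with the base that differs in capitals (mm10, minus strand in both, chr10:40290166-40290206 for Amd1 and chr10:35710744-35710784 for Amd2).
Amd1: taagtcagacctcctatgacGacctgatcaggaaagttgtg
Amd2: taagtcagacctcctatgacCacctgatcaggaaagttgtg
Of all windows of 150 bases, the read length, in the Amd1 transcript, 61.9% occur unchanged in Amd2.

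Amd1 was listed at 98.3 and 204 FPKM in DMSO replicates 1 and 2 and at 37.4 and 118 in inhibitor-treated replicates 1 and 2. Amd2 was listed at 189 and 0.0300 FPKM in the DMSO libraries and at 148 and 48.1 in the inhibitor-treated libraries. Where Amd2 was listed high Amd1 was low, and in DMSO replicate 2 nearly all counts stood under Amd1. The share of the summed expected counts listed under Amd2 was 65.8% and 0.0143% in the DMSO libraries and 79.8% and 29.0% in the inhibitor-treated libraries. It varied as widely within groups as between them. Taken singly, Amd1 had a log2FC of -1.07 (SE 0.58, 95% interval -2.43 to 0.28, adjusted p of 0.396 by edgeR) and Amd2 of -0.21 (SE 1.94, 95% interval -4.73 to 4.32, adjusted p of 0.968).

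Added up, the 2 genes gave a steadier value, an alternative chosen after seeing the data. Reads that mapped to more than 1 place were discarded, so fragments from sequence the genes share may be missing from the sum too. The sum of the 2 genes was 288 and 204 FPKM in DMSO replicates 1 and 2 and 185 and 166 in inhibitor-treated replicates 1 and 2. The groups did not overlap, but DMSO replicate 2 was closer to inhibitor-treated replicate 1 than to DMSO replicate 1. The log2FC of the summed counts was -0.65 (SE 0.40, 95% interval -1.60 to 0.29, adjusted p of 0.440 by edgeR), and -0.22 (95% interval -0.69 to 0.24, adjusted p of 0.690) without DMSO replicate 1.

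**Figure D2:**
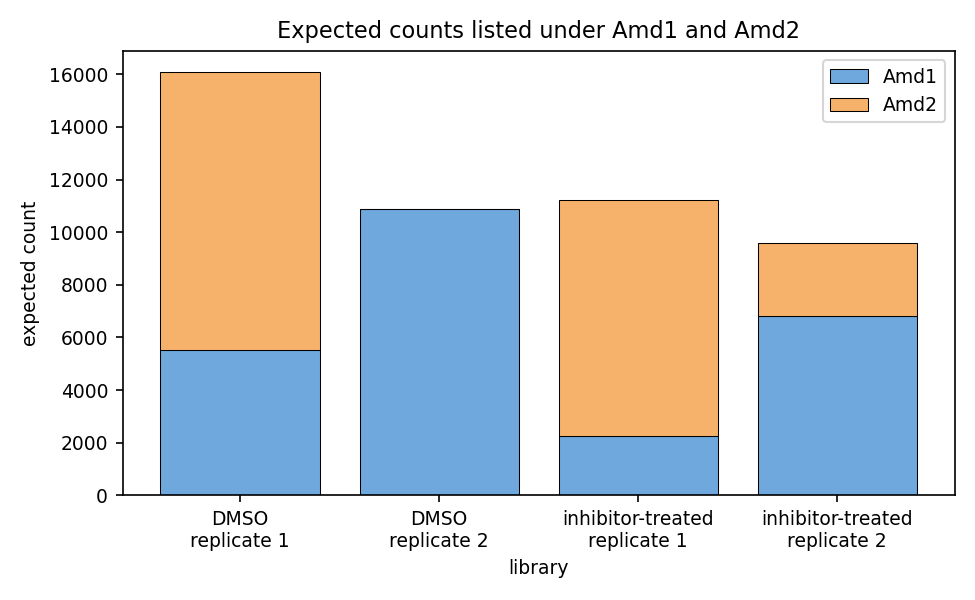
Expected counts listed under Amd1 and Amd2, stacked, in each of the 4 libraries. The whole bars run from 16091 in DMSO replicate 1 to 9597 in inhibitor-treated replicate 2, while the Amd2 part goes from 79.8% of the bar in inhibitor-treated replicate 1 to 0.0143% in DMSO replicate 2.

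Srm, the spermidine synthase gene at chr4:148591513-148594619, was at 94.0 and 55.1 FPKM in DMSO replicates 1 and 2 and at 37.1 and 32.5 in inhibitor-treated replicates 1 and 2. As for Odc1, the groups were apart and DMSO replicate 2 lay between DMSO replicate 1 and both treated libraries. The log2FC was -1.27 (SE 0.45, 95% interval -2.33 to -0.21, unadjusted p of 0.0248, adjusted p of 0.33 by edgeR). Without DMSO replicate 1 it was -0.66 (unadjusted p of 0.0456), and without DMSO replicate 2 it was -1.70 (adjusted p of 0.00148).

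Sms, the X-linked gene of spermine synthase at chrX:157443851-157492287, was at 133 and 197 FPKM in DMSO replicates 1 and 2 and at 213 and 182 in inhibitor-treated replicates 1 and 2. Its groups overlapped, and the log2FC was 0.14 (SE 0.37, 95% interval -0.71 to 0.99, adjusted p of 0.871 by edgeR). The log2FC was 0.00 with DMSO replicate 1 left out and 0.30 with DMSO replicate 2 left out. The interval of Sms from all 4 libraries does not hold the values of Odc1 and Srm from all 4 libraries, -1.43 and -1.27. It does hold their values without DMSO replicate 1, -0.55 and -0.66. Whether Sms differed from Odc1 and Srm in its response was not tested.

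Oaz1, at chr10:80826656-80829290, was among the most abundant transcripts of the embryo. Antizyme is made only when the ribosome shifts by 1 base at a stop codon, a step that polyamines favour, so its transcript level does not give its protein level. The site is shown because it is the regulatory element of the gene, with the codon TCC and the stop codon TGA at which the shift takes place in capitals (mm10, plus strand, chr10:80828270-80828313). It follows 67 codons of the first reading frame.
Oaz1: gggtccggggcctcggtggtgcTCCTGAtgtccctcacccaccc

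Oaz1 was at 1619 and 2212 FPKM in DMSO replicates 1 and 2 and at 2409 and 2914 in inhibitor-treated replicates 1 and 2. It held place 80 and 32 among all genes in the DMSO libraries and 29 and 22 in the inhibitor-treated libraries. Both treated values were above both DMSO values, by a log2FC of 0.35 (SE 0.38, 95% interval -0.53 to 1.23, adjusted p of 0.656 by edgeR), and by 0.27 without DMSO replicate 1. A processed copy on chromosome 17, Oaz1-ps, has a transcript of 685 bases that lies within 5 edits of the Oaz1 sequence, and 35.9% of the 150-base windows of Oaz1 occur in it unchanged. The copy was listed at 478 and 473 FPKM in the DMSO libraries and at 350.3 and 194 in the inhibitor-treated libraries, opposite in direction to Oaz1. Its share of the counts of both genes was 20.2% and 15.5% in DMSO and 11.1% and 5.42% in inhibitor-treated libraries. Summed, the pair gave 1850.1 and 2005 CPM in DMSO replicates 1 and 2 and 2085 and 2317 in inhibitor-treated replicates 1 and 2. The groups were still without overlap but closer together than for Oaz1 alone. Fragments from sequence the pair shares may be missing from this sum.

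Oaz2, a second antizyme gene at chr9:65676548-65690300, was at 57.5 and 48.2 FPKM in DMSO replicates 1 and 2 and at 40.4 and 48.8 in inhibitor-treated replicates 1 and 2. The groups overlapped in FPKM and touched without overlapping in CPM, with 72.6 in DMSO replicate 2 against 72.2 in inhibitor-treated replicate 2. The log2FC was -0.40 (SE 0.38, 95% interval -1.28 to 0.48, adjusted p of 0.610 by edgeR), and -0.11 without DMSO replicate 1. Azin1, at chr15:38487430-38519294, was the steadiest of the 10 in FPKM, at 61.7 and 62.5 FPKM in the DMSO libraries and 56.7 and 56.6 in the inhibitor-treated libraries. Its treated values were lower by a small amount that exceeded the spread within groups in FPKM, with a log2FC of -0.27 (SE 0.35, 95% interval -1.08 to 0.54, adjusted p of 0.718 by edgeR) and of -0.13 without DMSO replicate 1.

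Sat1, at chrX:155213126-155216449, encodes the acetyltransferase that starts polyamine breakdown and export. It was at 2152 and 1458 FPKM in DMSO replicates 1 and 2 and at 608 and 1042 in inhibitor-treated replicates 1 and 2. The groups did not overlap, the DMSO libraries differed by 1.48 times and the treated libraries by 1.71 times. The log2FC was -1.28 (SE 0.46, 95% interval -2.37 to -0.20, unadjusted p of 0.0264, adjusted p of 0.33 by edgeR). Without DMSO replicate 1 it was -0.81 (unadjusted p of 0.0197), and without DMSO replicate 2 it was -1.63 (adjusted p of 0.00265). A gene of breakdown was thus lower by about as much as the synthesis genes Odc1 and Srm.

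Paox, the acetylpolyamine oxidase gene at chr7:140115735-140134334, had the lowest mean FPKM of the 10 genes in both groups. It was at 2.62 and 4.56 FPKM in DMSO replicates 1 and 2 and 10.9 and 7.65 in inhibitor-treated replicates 1 and 2. These values rest on 73, 121, 331 and 221 expected counts. Both treated libraries were above both DMSO libraries, with a log2FC of 1.26 (SE 0.56, 95% interval -0.03 to 2.56, unadjusted p of 0.0548, adjusted p of 0.343 by edgeR) and of 1.03 without DMSO replicate 1. In the RefSeq annotation the span of Paox overlaps Echs1, and the counting is not stated to use strand, so reads of the overlap could belong to either gene.

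**Figure D3:**
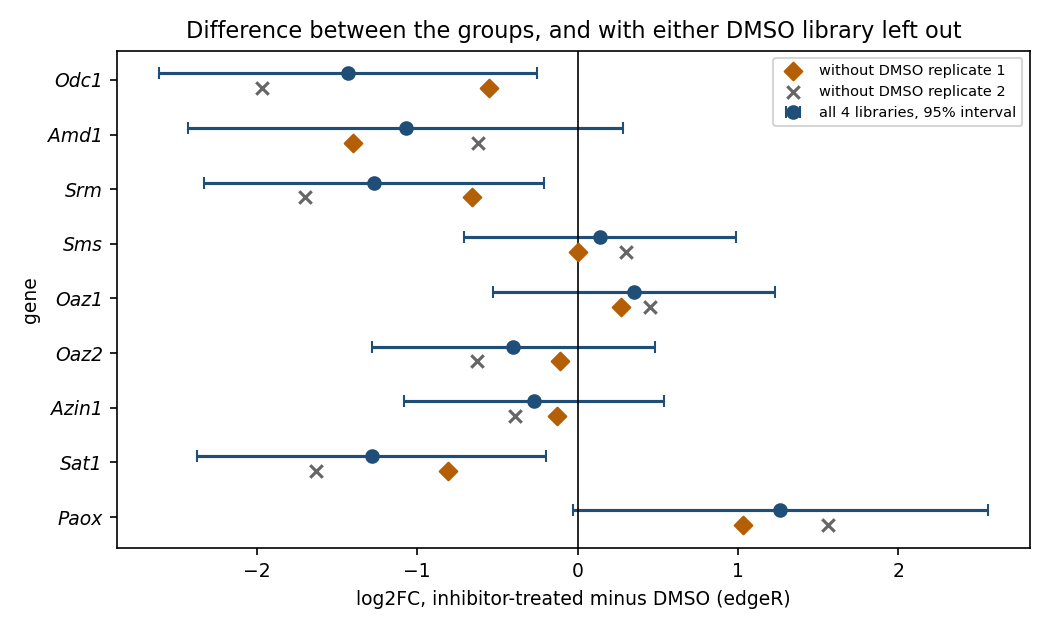
The log2FC of 9 genes, inhibitor-treated minus DMSO, with its 95% interval from all 4 libraries (circles), without DMSO replicate 1 (diamonds) and without DMSO replicate 2 (crosses); Amd2 is left out because 1 library is near 0. The intervals of Odc1, Srm and Sat1 lie below 0, and for these 3 genes the diamonds lie nearer 0 than the crosses.

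DMSO replicate 2 lay between DMSO replicate 1 and both treated libraries for 7 of the 10 genes, where 47.4% of all tested genes had this order. For Odc1, Srm and Sat1 it is the library in which two-cell markers were also between the lowest sum and the treated sums, and the part of that order in the gene differences was not tested. With DMSO replicate 2 left out, so that DMSO replicate 1, the library that stood apart, was the only control and only the treated libraries gave the spread, 3 of the 10 genes passed both thresholds, an adjusted p under 0.05 and a log2FC over 1 in size, and all 3 were lower, where 14.1% of all genes passed as lower and 14.6% as higher. Without DMSO replicate 1, none of the 10 passed.

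Ratios within a library do not depend on how libraries are scaled to each other. Oaz1 exceeded Odc1 in FPKM by 5.49 and 16.7 times in DMSO replicates 1 and 2 and by 26.8 and 31.8 times in inhibitor-treated replicates 1 and 2. The groups did not overlap, and the log2 ratio of Odc1 to Oaz1 was -3.26 ± 1.13 (SD, n = 2) in DMSO and -4.87 ± 0.17 in inhibitor-treated libraries, a difference of -1.61. Leaving out DMSO replicate 1 gave -0.81, and leaving out DMSO replicate 2 gave -2.41. An exact two-sided permutation test gave p = 0.33, the smallest value that 2 against 2 libraries allow. The ratio of Azin1 to Oaz1 was 0.0381 and 0.0282 in DMSO and 0.0236 and 0.0194 in inhibitor-treated libraries, a difference of -0.62 on the log2 scale (exact permutation p = 0.33) and of -0.40 without DMSO replicate 1. Both ratios leave out Oaz1-ps, which held 20.2% and 15.5% of the counts of the pair in DMSO and 11.1% and 5.42% in inhibitor-treated libraries. Leaving the copy out lowers Oaz1 more in DMSO, which widens both differences. Ratios with the pair summed were not computed.

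The FPKM of the 5 synthesis genes summed to 809.7 and 589 in DMSO replicates 1 and 2 and to 526 and 472 in inhibitor-treated replicates 1 and 2. Those of Sat1 and Paox summed to 2155 and 1463 in DMSO and to 619 and 1049.8 in inhibitor-treated libraries. Sat1 alone, at 2152 and 1458 in DMSO and 608 and 1042 in inhibitor-treated libraries, made up nearly all of this sum. Paox, which was higher in the treated libraries, hardly counts in it, and Smox and Sat2 are not in it. In the synthesis sum, fragments from sequence that Amd1 and Amd2 share may be missing. Synthesis transcripts per breakdown transcript came to 0.376 and 0.403 in the DMSO libraries and 0.850 and 0.449 in the inhibitor-treated libraries. Both treated libraries were above the DMSO libraries, but most of the difference of 0.67 on the log2 scale came from inhibitor-treated replicate 1 (exact permutation p = 0.33). The difference was 0.21 without inhibitor-treated replicate 1 and 0.62 without DMSO replicate 1. These 3 ratios were the ones tested, all at the same smallest p.

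The motif CACGTG, which reads the same on both strands, is among those that MYC and MAX bind in DNA. It was searched in the 250 bases before each transcription start in the RefSeq promoter sequences (GRCm38.p6), where 8 of the 10 genes had 10 windows. Srm and Azin1 had no window and were not searched. The motif was found in 1 of the 10 windows, a window of Sms, against 6.02% of all 32851 windows. The window of Sms is shown with the motif in capitals, 190 bases before the start (chrX:157492288-157492537, minus strand), beside that of Odc1, the gene of the 10 with the largest log2FC in size, in which no match was found (chr12:17544623-17544872, plus strand).
Sms: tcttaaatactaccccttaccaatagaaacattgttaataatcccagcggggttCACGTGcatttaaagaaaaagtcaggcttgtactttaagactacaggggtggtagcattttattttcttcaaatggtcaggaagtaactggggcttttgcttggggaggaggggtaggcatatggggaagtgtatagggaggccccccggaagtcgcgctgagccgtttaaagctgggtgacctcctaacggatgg
Odc1: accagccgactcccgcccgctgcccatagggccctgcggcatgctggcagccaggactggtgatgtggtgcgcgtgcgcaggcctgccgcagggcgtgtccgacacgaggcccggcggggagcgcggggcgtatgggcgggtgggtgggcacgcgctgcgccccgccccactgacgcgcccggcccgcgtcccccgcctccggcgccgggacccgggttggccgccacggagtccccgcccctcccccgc
The starts are those of the promoter sequences. For Odc1, Paox and another window of Sms, they lie inside the gene spans given above. These windows leave out most of the introns and more distant sequence, and no other motif was searched. A match or its absence is a description of these letters alone.

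The other genes of polyamine metabolism were read from a list of 34 genes for ornithine supply, S-adenosylmethionine supply and salvage, breakdown, hypusination (the use of spermidine to modify the factor eIF5A), antizymes and transport. Of these, 28 passed the filter on low counts, 13 with lower and 15 with higher fitted expression after treatment and a median log2FC of 0.23. With DMSO replicate 1 left out, 29 passed the filter, 12 lower and 17 higher, with a median of 0.21. None passed the adjusted threshold by edgeR, while 7 were lower and 0 higher at an unadjusted p under 0.05, against 10.1% and 4.72% of all genes. With transcript lengths as offsets, DESeq2 passed 3 of the 34 genes, all lower. Of the 7971 genes to which it gave an adjusted p, it passed 5.38% as lower and 1.04% as higher. Some of the 34, such as Smox and Mri1, were given no adjusted p, so these shares are not over the same kind of list.

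Those 3 were Arg1, Sat2 and Mat2a. Arg1, which encodes the arginase that splits arginine into ornithine and urea, was at 50.7 and 23.4 FPKM in DMSO replicates 1 and 2 and at 4.37 and 7.84 in inhibitor-treated replicates 1 and 2. Its log2FC of -2.79 by edgeR (SE 0.61, adjusted p of 0.33) had an adjusted p of 0.00121 by DESeq2, and it was -1.94 without DMSO replicate 1. Arg1 also passed edgeR with the replicate number as a block (adjusted p of 0.0349) and without the filter on low counts (adjusted p of 0.000168). Arg2, the mitochondrial arginase gene, had the opposite order at 24.1 and 57.2 FPKM in DMSO and 66.4 and 101 in inhibitor-treated libraries, and is named after its values were seen (log2FC of 0.95, adjusted p of 0.365 by edgeR, and 0.55 without DMSO replicate 1). Sat2, a relative of Sat1, was at 70.5 and 14.8 FPKM in DMSO and 7.06 and 7.95 in inhibitor-treated libraries, so that DMSO replicate 1 alone was far above the rest. The log2FC of Sat2 was -2.72 (adjusted p of 0.33 by edgeR, 0.0132 by DESeq2) and -0.97 without DMSO replicate 1. Mat2a, which makes S-adenosylmethionine, was at 293 and 110.0 FPKM in DMSO and 62.2 and 68.7 in inhibitor-treated libraries, with a log2FC of -1.82 (adjusted p of 0.33 by edgeR, 0.0219 by DESeq2) and of -0.75 without DMSO replicate 1.

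In the salvage of methylthioadenosine, the by-product of Srm and Sms, the first enzyme gene Mtap was at 7.75 and 9.28 FPKM in DMSO and 12.6 and 14.0 in inhibitor-treated libraries (log2FC of 0.51, adjusted p of 0.553 by edgeR, and 0.52 without DMSO replicate 1). Mri1 and Adi1, which act later in that salvage, had log2FC of -1.62 and -1.39 (adjusted p of 0.334 and 0.33 by edgeR), which were -1.11 and -0.76 without DMSO replicate 1. Among hypusination genes, Dhps had a log2FC of -1.26 and Dohh of -1.51 (adjusted p of 0.33 and 0.334 by edgeR), and their groups did not overlap. These were -0.83 and -1.56 when DMSO replicate 1 was left out. Their substrate gene Eif5a was abundant in all libraries, at 1421 and 871 FPKM in DMSO and 1046 and 986 in inhibitor-treated libraries. Its log2FC was -0.34 (adjusted p of 0.716 by edgeR) and went to 0.23 without DMSO replicate 1. Smox, the spermine oxidase gene, was at 0.780 and 2.50 FPKM in DMSO and 4.22 and 3.99 in inhibitor-treated libraries (log2FC of 1.04, adjusted p of 0.527 by edgeR, and 0.46 without DMSO replicate 1). The transporter genes Slc22a3 and Slc47a1 rest on few counts, 7, 0, 49 and 27 for Slc22a3 and 5, 10, 22 and 21 for Slc47a1 (the DMSO libraries first), and no fold is given.

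**Figure D4:**
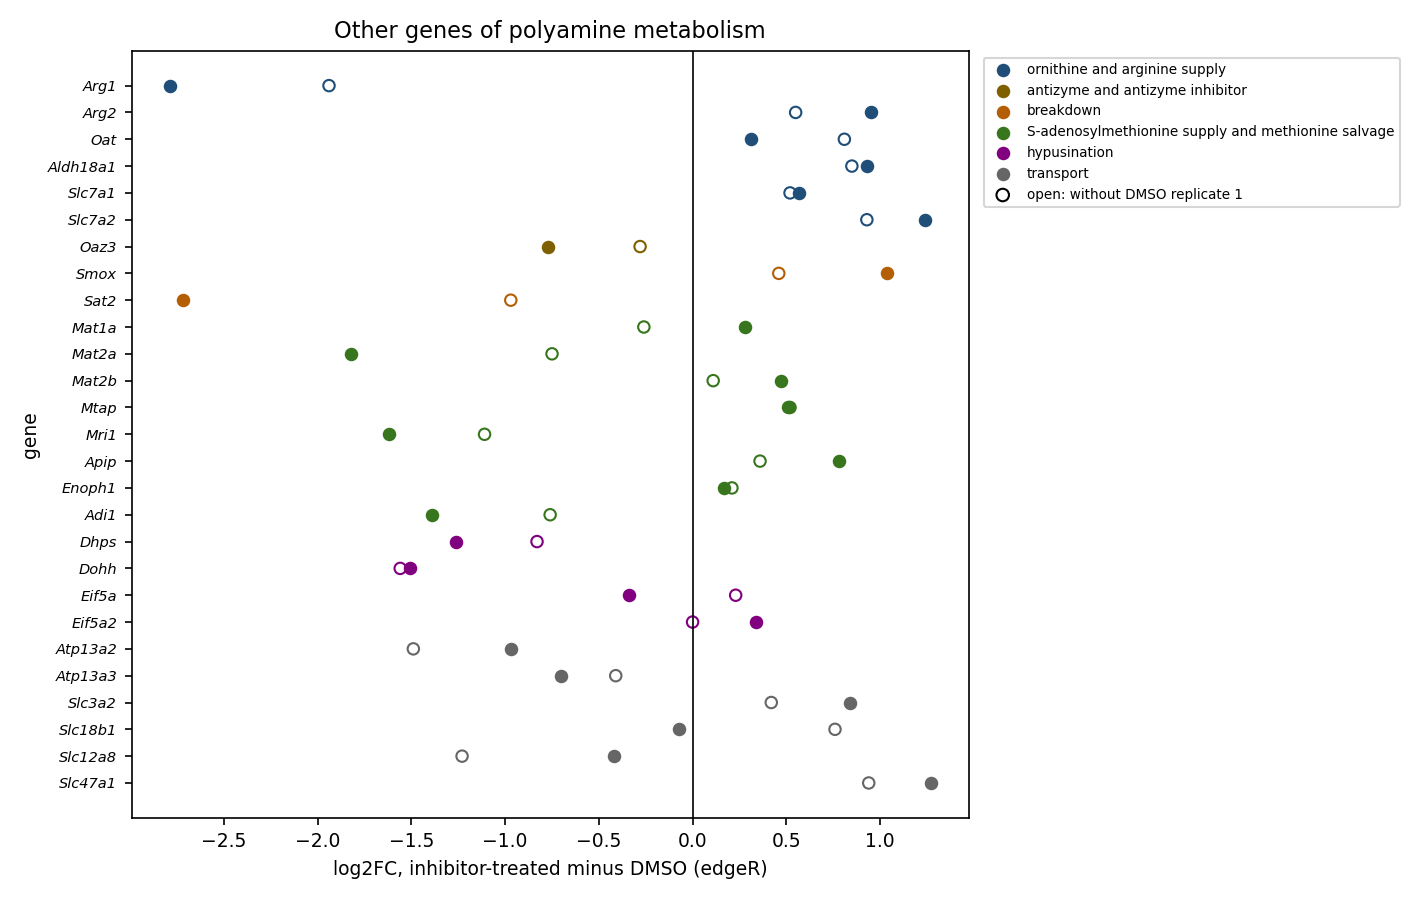
The log2FC of 27 of the 28 tested other genes of polyamine metabolism, inhibitor-treated minus DMSO, coloured by role, from all 4 libraries (filled) and without DMSO replicate 1 (open). Slc22a3 is left out because DMSO replicate 2 is at 0. Atp13a2, which is at 0 in inhibitor-treated replicate 1, is shown. Arg1 and Sat2 lie farthest below 0, at -2.79 and -2.72, and their open circles lie nearer 0 at -1.94 and -0.97.

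The inhibitor acts on the MYC protein, so the level of its own transcript does not check the treatment. Myc was at 7.59 and 7.81 FPKM in DMSO replicates 1 and 2 and at 2.73 and 2.74 in inhibitor-treated replicates 1 and 2. With 2 libraries in a group, the intervals of Sms, Oaz1, Oaz2 and Azin1 reach up to 1.28 on the log2 scale away from 0, so their small values do not show that these genes were the same in both groups.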

How the data were processed

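Polyadenylated RNA of 10 late two-cell ICR embryos per library was prepared with a SMART-Seq v4 kit and sequenced as read pairs of 150 bases. The authors aligned reads to mm10 with STAR 2.7.10, discarded reads that mapped to more than 1 place and estimated gene levels by RSEM 1.3.3. The expected count deposited per gene is RSEM's estimate of its fragments, not normalized, and 3.97% to 4.49% of values were not whole. Also deposited were FPKM values, divided by effective length and library fragments, and TPM values, divided by effective length and brought to a fixed total.

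Expected counts, totalling 18206584 to 20718690 per library, were rounded. Genes were kept by filterByExpr (minimum count 10, minimum total 15), leaving 13549 genes, and TMM scaling gave a factor of 0.873 in DMSO replicate 1 and 1.04 to 1.06 elsewhere. Inhibitor-treated embryos were compared with DMSO by edgeR 4.0.16 (quasi-likelihood test, robust, Benjamini-Hochberg adjustment over all tested genes) in R 4.3.3, at an adjusted p under 0.05 and a log2FC over 1 in size. The common biological coefficient of variation was 0.557. Each SD is that of 2 libraries, and the scripts were tested on simulated data. FPKM was compared within libraries and by its values, and TPM served in alternatives.

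Alternatives were DESeq2 1.42.0 (same genes, all genes, and transcript lengths as offsets), limma 3.58.1 on log2(FPKM + 1) and log2(FPKM + 0.1), other scalings and filters, the replicate number as a block, and each library left out. Chosen after the data were seen were the sum of Amd1 and Amd2, and both levels of the DESeq2 filter on low genes: 0.05 was run first, and the default of 0.1 was then adopted for the planned fits.

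The genes, the pathway and marker lists and the tests were chosen with earlier results of these data known. The text names all 10 genes and, of the other pathway genes, up to 8 with the largest log2FC over 1 in size and no overlap between the groups (11 qualified), with Smox, Mat2a, Mtap, Eif5a and Dhps whatever their values. Sequences came from GENCODE M21 transcripts and RefSeq promoters (GRCm38.p6).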

Additional observations from a re-analysis of the deposited data

How the results depend on the processing

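Over all genes, edgeR passed 0 (2013 at an unadjusted p under 0.05) and limma 0, while DESeq2 passed 566 on the same genes, 524 on all genes and 512 with transcript lengths, or 576, 524 and 525 with its filter set for 0.05. Without a filter on low counts edgeR passed 644, and with each library left out 2 to 4213, the highest without DMSO replicate 2 and the lowest without DMSO replicate 1. Of the 10 genes, 0 passed in the main test. Odc1 alone passed without the low-count filter (adjusted p of 0.0465 by edgeR). Odc1 also passed by DESeq2 on the same genes with its filter set for 0.05 (0.0449, against 0.0518 at the default). The call of Odc1 thus turns on these settings. Sat1 came close in the same DESeq2 fits (0.0506, against 0.0585 at the default). With each library left out, 0 to 3 passed. The median log2FC of the 10 went from -0.63 to -0.12 with each library left out. That of the other pathway genes was 0.04 in the DESeq2 fits on all genes and with lengths, at both filter levels, and 0.05 without the filter, and went from 0.06 to 0.33 with each library left out.

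Amd2 reversed to 0.05 with library totals, 3.74 with the replicate block, 11.26 without DMSO replicate 1, 0.39 without inhibitor-treated replicate 2 (from -1.21 without DMSO replicate 2), 2.61 by limma with a pseudocount of 1, with or without a filter, and 4.09 with 0.1. Eif5a reversed to 0.23 without DMSO replicate 1 and was -0.74 without DMSO replicate 2. Of the 10 genes, the 9 other than Amd2 reversed in none of the settings run. Library totals moved the median log2FC of all genes from 0.04 to 0.17, limma to 0.12 and 0.16, and leaving out DMSO replicate 2 to 0.22. Deviations of same-numbered libraries correlated at r = -0.03 across genes, so the numbers were not taken to pair the libraries, and the replicate block passed 44 genes (12 higher, 32 lower), none of the 10 and, of the other pathway genes named, Arg1. Except as stated, the cause of these shifts was not tested. With 2 libraries in a group, no difference of a single ratio can go below p = 0.33 by an exact permutation test.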
